A study of Arabidopsis thaliana with 9 samples.

Results

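LHCB4.1 (AT5G01530), LHCB4.2 (AT3G08940), PSBY (AT1G67740) and PSB27 (AT1G03600) are nuclear genes for photosystem II, its repair and its minor antenna, and they were followed over all 9 arrays of the study. They were taken as the probe sets that name 1 of these genes. Each gene had 1 such probe set, giving 4 of the 22746 tested. The arrays were Affymetrix ATH1, a short-oligonucleotide array of the Arabidopsis thaliana genome. Each was hybridised with RNA from whole 10-day-old Col-0 seedlings grown in liquid culture with 1% DMSO as solvent, which all 3 groups received. The groups were wild type with 30 µM of the small molecule hyperphyllin, the mutant amp1-13 with DMSO alone, and wild type with DMSO alone, with 3 biological replicates each. AMP1 encodes a putative glutamate carboxypeptidase, and amp1-13 is a mutant allele of it. The AMP1 transcript was not analysed here, and the genotype rests on the label alone.

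Photosystem II is the complex of the thylakoid membrane that oxidises water and passes the electrons on. Its reaction centre is encoded in the plastid, while its light-harvesting antenna, several small subunits and the factors that assemble and repair it are encoded in the nucleus and imported. LHCB4 proteins, also called CP29, are monomeric chlorophyll a/b proteins that sit between the core and the outer, trimeric antenna. PSBY is a small membrane subunit whose single Arabidopsis precursor is cut into a pair of proteins. PSB27 is a lumenal protein that binds photosystem II during its assembly and its repair after light damage. Transcripts of nuclear photosynthesis genes are abundant in green tissue, rise with light and chloroplast development, and fall when chloroplasts are damaged.

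Values are log2 signals as deposited, on which 1 unit is a doubling, and differences are log2 differences ± SE from a limma fit of all 9 arrays. Array medians lay between 6.44 and 6.52. Wild-type DMSO replicate 2 deviated most from its group mean, with an SD of the deviations over probe sets of 0.244, against 0.12 to 0.187 on the other arrays. The differences of the 4 genes from wild type with DMSO are therefore also given without it. The number of arrays limits the precision.

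In total, 3 of the 4 genes were higher with hyperphyllin than with DMSO alone (LHCB4.1, PSBY and PSB27), and all 4 were higher in amp1-13 than in wild type. Over all probe sets, 13.3% were called higher with hyperphyllin and 10.1% were called higher in amp1-13 at an adjusted p of 0.05 in limma. The median log2 difference of the 4 genes was 0.80 with hyperphyllin and 0.78 in amp1-13, and over all probe sets it was -0.03 in both comparisons. The 4 genes, like the lists of genes below, were chosen with earlier results of these data known. Their counts and medians beside those of all probe sets are therefore a description and not a test. The 2 comparisons share the wild-type DMSO arrays, so they are not independent of each other. The lowest mean signal of a group, 9.84 for PSB27 in wild type with DMSO, was far above the 25th percentile of all probe sets (4.39). By mean signal the 4 genes lay between the 96.0th percentile (PSB27) and the 99.7th (LHCB4.1). Whether signals this high compress differences was not tested.

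**Figure D1:**
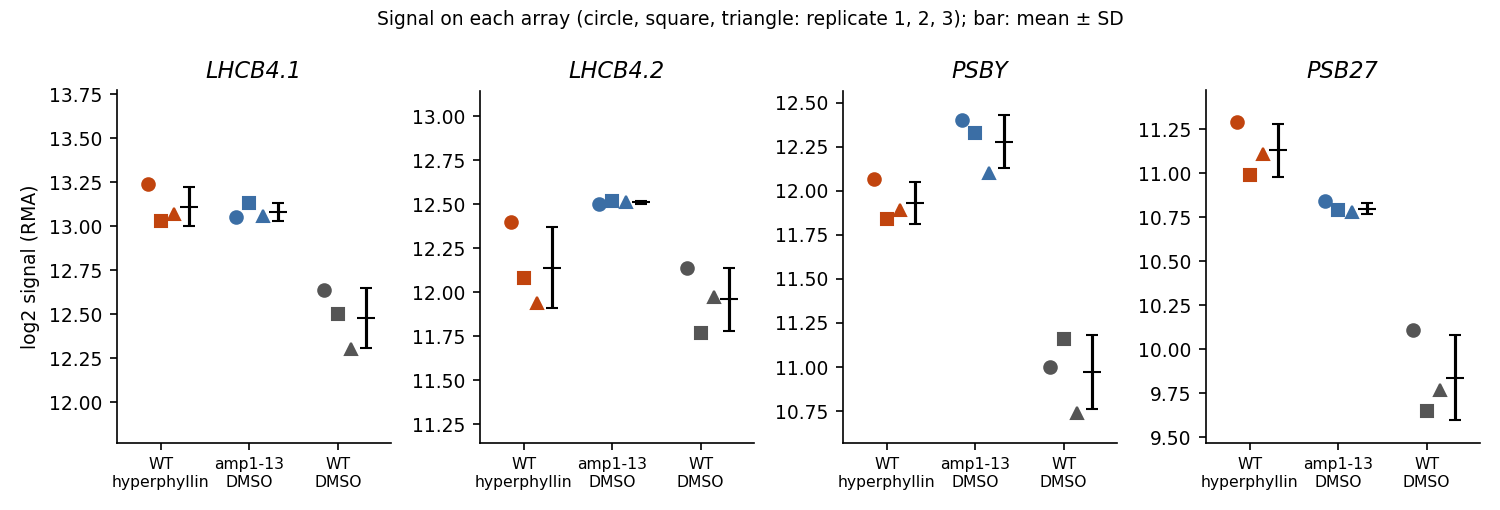
Log2 signal (vertical axis, RMA, a span of 2 log2 units in every panel) of the 4 genes on each array, for wild type with hyperphyllin, amp1-13 with DMSO and wild type with DMSO. Points are arrays with the replicate shown by shape, and the bars are the mean ± SD of 3 arrays. All treated and mutant arrays lie above all wild-type DMSO arrays for LHCB4.1, PSBY and PSB27, while the hyperphyllin and DMSO arrays overlap for LHCB4.2.

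Of the antenna genes, LHCB4.1 had log2 signals of 13.24, 13.03 and 13.07 with hyperphyllin, 13.05, 13.13 and 13.06 in amp1-13, and 12.64, 12.50 and 12.30 in wild type with DMSO. All treated and all mutant arrays lay above the highest wild-type DMSO array, with gaps of 0.39 and 0.41. A gap of this kind, with every array of the group above every wild-type DMSO array, was found in 16.7% of all probe sets with hyperphyllin and in 14.9% in amp1-13, and in 3 and 4 of the 4 genes. LHCB4.1 rose 1.55-fold with hyperphyllin (log2 difference 0.63 ± 0.11, limma adjusted p = 0.00256). In amp1-13 its log2 difference was 0.60 ± 0.11, with a 95% interval of 1.29-fold to 1.79-fold. Without wild-type DMSO replicate 2 the log2 differences were 0.64 with hyperphyllin and 0.61 in amp1-13.

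LHCB4.2, the paralog that encodes another form of CP29, had log2 signals of 12.40, 12.08 and 11.94 with hyperphyllin, 12.50, 12.52 and 12.51 in amp1-13, and 12.14, 11.77 and 11.97 in wild type with DMSO. The amp1-13 arrays lay within 0.02 of each other and above every wild-type array, whereas the hyperphyllin arrays overlapped those with DMSO. The rise in amp1-13 was 1.46-fold (log2 difference 0.55 ± 0.13, limma adjusted p = 0.0174). This call was lost without wild-type DMSO replicate 3, amp1-13 replicate 1 or amp1-13 replicate 2 (limma adjusted p = 0.0569, 0.0511 and 0.058), although the log2 difference stayed between 0.54 and 0.56. With hyperphyllin the log2 difference was 0.18 ± 0.13 (limma adjusted p = 0.349), and its 95% interval ran from 0.923-fold to 1.39-fold. Without wild-type DMSO replicate 2 it was 0.09, against 0.46 in amp1-13, and over the arrays left out in turn it ranged from 0.05 to 0.28.

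PSBY had log2 signals of 12.07, 11.84 and 11.89 with hyperphyllin, 12.40, 12.33 and 12.10 in amp1-13, and 11.00, 11.16 and 10.74 in wild type with DMSO. The lowest treated array lay 0.68 above the highest wild-type DMSO array, and the lowest mutant array 0.94 above it. PSBY rose 1.95-fold with hyperphyllin (log2 difference 0.96 ± 0.13, limma adjusted p = 0.000888). In amp1-13 it rose by a log2 difference of 1.31 ± 0.13 (limma adjusted p = 0.000442), with a 95% interval of 2.02-fold to 3.02-fold. Only 2.18% of the probe sets had a larger absolute difference in amp1-13, against 7.57% with hyperphyllin. Without wild-type DMSO replicate 2 the log2 differences were 1.06 with hyperphyllin and 1.4 in amp1-13.

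PSB27 had log2 signals of 11.29, 10.99 and 11.11 with hyperphyllin, 10.84, 10.79 and 10.78 in amp1-13, and 10.11, 9.65 and 9.77 in wild type with DMSO. The 3 groups did not overlap, and they stood in the order hyperphyllin, amp1-13, wild type with DMSO. Hyperphyllin and amp1-13 lay 0.14 apart at the closest, and their difference did not pass the threshold (limma adjusted p = 0.195). These 2 groups did not overlap in 26.9% of all probe sets. With hyperphyllin the log2 difference was 1.29 ± 0.13, with a 95% interval of 2.00-fold to 2.98-fold. In amp1-13 PSB27 rose 1.95-fold (log2 difference 0.96 ± 0.13, limma adjusted p = 0.00149). In this gene 3.98% of the probe sets had a larger absolute difference with hyperphyllin and 4.97% in amp1-13. Without wild-type DMSO replicate 2 the log2 differences were 1.19 with hyperphyllin and 0.87 in amp1-13.

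The spread between replicates was uneven. Hyperphyllin replicate 1 was the highest treated array for 4 of the 4 genes, and wild-type DMSO replicate 1 was the highest control array for 3 of them. In amp1-13 the SD was 0.05 for LHCB4.1, 0.01 for LHCB4.2, 0.15 for PSBY and 0.03 for PSB27, against 0.17, 0.18, 0.21 and 0.24 in wild type with DMSO. The residual SD over the 3 groups lay between 0.12 and 0.17 for the 4 genes, at the 32.5th to the 58.9th percentile of all probe sets.

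The direct comparison of hyperphyllin-treated wild type with amp1-13 asks whether the compound and the mutation left these transcripts at different levels. None of the 4 genes passed the threshold, where 6.33% of all probe sets did in either direction, and 3 of the 4 had an unadjusted p under 0.05 in limma, against 18.9% of all probe sets. LHCB4.2 averaged 12.14 ± 0.23 with hyperphyllin and 12.51 ± 0.01 in amp1-13 (SD, n = 3 each), a log2 difference of -0.37 ± 0.13 whose 95% interval ran from -0.67 to -0.07 (limma adjusted p = 0.154). PSBY averaged 11.93 ± 0.12 with hyperphyllin and 12.28 ± 0.15 in amp1-13 (SD, n = 3 each), a log2 difference of -0.34 ± 0.13 (limma adjusted p = 0.173). PSB27 had the opposite sign, with 11.13 ± 0.15 with hyperphyllin and 10.80 ± 0.03 in amp1-13 (SD, n = 3 each) and a log2 difference of 0.32 ± 0.13 (limma adjusted p = 0.195). The arrays of the groups did not overlap for these 3 genes, a state found in 26.9% of all probe sets. For LHCB4.1 the log2 difference was 0.03 with an interval of -0.21 to 0.27, so a difference beyond 1.2-fold in either direction lay outside it. With array weights LHCB4.2 and PSBY passed the threshold (limma adjusted p = 0.0327 and 0.0392, log2 difference -0.38 for both).

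**Figure D2:**
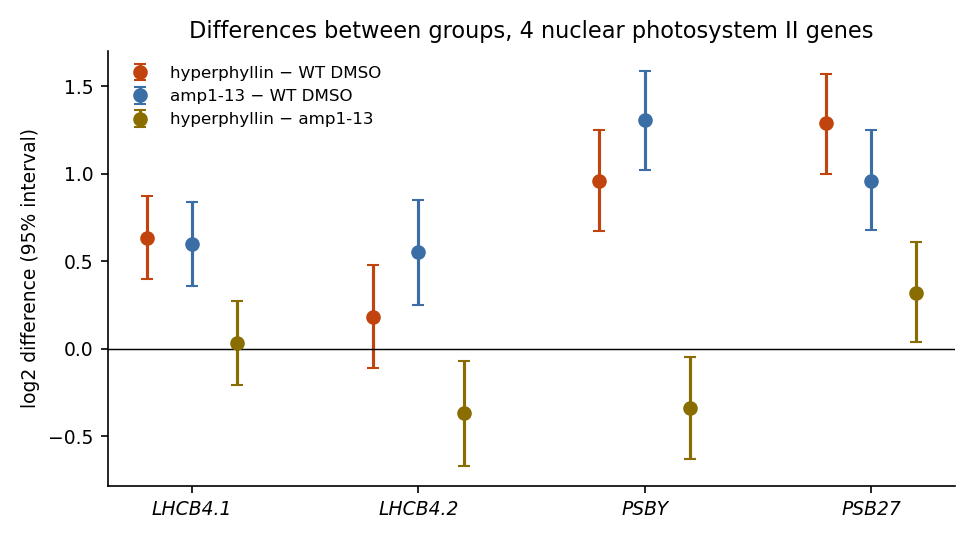
Log2 differences (vertical axis) of the 4 genes for the compound effect (hyperphyllin minus DMSO in wild type), the mutant effect (amp1-13 minus wild type, both with DMSO) and hyperphyllin minus amp1-13, with unadjusted 95% intervals from the limma fit of 9 arrays. The LHCB4.2 interval for hyperphyllin against DMSO includes 0, and the hyperphyllin against amp1-13 differences lie between -0.37 and 0.32.

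The paralogs were also compared within each array, which removes any scaling that affects a whole array. The log2 ratio of LHCB4.1 to LHCB4.2, taken relative to its mean in wild type with DMSO because levels of different probe sets cannot be compared, was 0.32, 0.43 and 0.61 with hyperphyllin, 0.03, 0.09 and 0.03 in amp1-13, and -0.01, 0.21 and -0.19 in wild type with DMSO. The treated arrays all lay above the arrays of both other groups. The ratio differed by 0.45 between hyperphyllin and wild-type DMSO and by 0.40 between hyperphyllin and amp1-13 (two-sided exact permutation p = 0.1 for each). That is the smallest p that 3 against 3 arrays can give, so this design could not reach 0.05. Between amp1-13 and wild type with DMSO the ratio differed by 0.05 (two-sided exact permutation p = 0.7). Without wild-type DMSO replicate 2 the ratio differed by 0.55 between hyperphyllin and wild-type DMSO and by 0.15 between amp1-13 and wild-type DMSO. These are 3 comparisons of 1 ratio, and no p is adjusted. Cross-hybridisation between the paralogs and saturation of their signals were not tested.

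**Figure D3:**
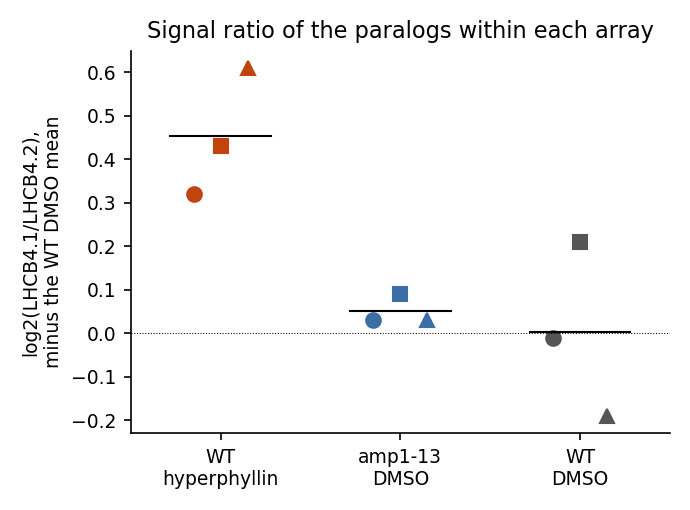
Log2 ratio of the LHCB4.1 to the LHCB4.2 signal on each array (vertical axis), minus its mean in wild type with DMSO, for the 3 groups. Points are arrays with the replicate shown by shape, and lines are group means. The treated arrays lie at 0.32 to 0.61, above the amp1-13 arrays at 0.03 to 0.09.

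Among the other nuclear genes of the photosystems that were listed and measured, LHCB4.3, which encodes a further CP29-type protein, had log2 signals of 7.79, 7.79 and 7.82 with hyperphyllin, 7.93, 7.85 and 7.91 in amp1-13, and 7.49, 7.36 and 7.44 in wild type with DMSO. All treated and mutant arrays lay above the controls. LHCB4.3 rose 1.29-fold with hyperphyllin (log2 difference 0.37 ± 0.08, limma adjusted p = 0.00659) and 1.38-fold in amp1-13. Measured means here that a probe set named the gene alone in the annotation used, which left 8730 probe sets without a name. Whether those cover other listed genes was not examined. Of 15 listed antenna genes 3 were measured in this sense. Of these, 2 were called higher with hyperphyllin and 3 in amp1-13, beside 13.3% and 10.1% of all probe sets. The amp1-13 count includes LHCB4.2, whose call was lost without any 1 of 3 arrays.

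PSBW, another small nuclear subunit of photosystem II, had a log2 difference of 0.32 ± 0.10 with hyperphyllin (limma adjusted p = 0.0439) and rose 1.35-fold in amp1-13 (limma adjusted p = 0.0157). Its hyperphyllin call was lost with any array left out other than wild-type DMSO replicate 1 (highest adjusted p 0.137), with arrays centred on their median (limma adjusted p = 0.0915) and with only the 2 groups compared (limma adjusted p = 0.0893). Its amp1-13 call was lost without amp1-13 replicate 3 (limma adjusted p = 0.0509). PSBY and PSBW were the measured nuclear subunits, 2 of 12 listed. Both were called higher in both comparisons in the main fit, PSBW with the lost calls given above. Of all probe sets 13.3% were called higher with hyperphyllin and 10.1% in amp1-13.

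For assembly and repair, 8 of 35 listed genes were measured, of which 3 were higher with hyperphyllin and 2 in amp1-13, with none lower in either comparison. Of all probe sets 13.3% were called higher and 15.6% lower with hyperphyllin, and 10.1% higher and 12.5% lower in amp1-13. Besides PSB27 these were AT1G54500, which the reference names only by its locus and which rose 1.56-fold with hyperphyllin and 1.72-fold in amp1-13, and LPA1, an assembly factor, which rose 1.29-fold with hyperphyllin (limma adjusted p = 0.0244). The LPA1 call was lost with only the 2 groups compared (limma adjusted p = 0.0561), and without wild-type DMSO replicate 1 or 3 or hyperphyllin replicate 1 or 3 (highest adjusted p 0.0843). LPA1 had a log2 difference of 0.26 ± 0.10 in amp1-13 (limma adjusted p = 0.0929), and its adjusted p there was 0.0333 without wild-type DMSO replicate 2. The median log2 difference of the 8 genes was 0.24 with hyperphyllin and 0.12 in amp1-13. PSB27 had the largest difference of the 8 in both comparisons. Of the 8, AT1G54500, AT3G60370 and AT4G17740 have no gene name in the reference. Without these 3, a choice made after the data were seen, 2 of 5 genes were higher with hyperphyllin and 1 of 5 in amp1-13, with medians of 0.28 and 0.16.

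**Figure D4:**
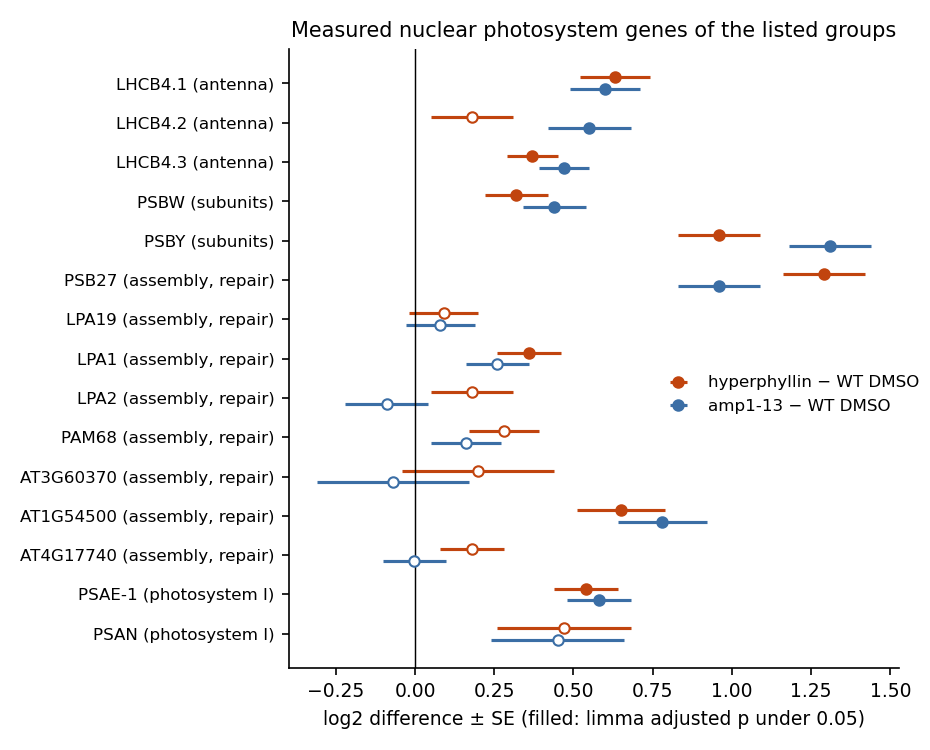
Log2 difference ± SE (horizontal axis) of each measured nuclear photosystem gene of the listed groups, for the compound effect and the mutant effect against wild-type DMSO. Filled points have a limma adjusted p under 0.05. PSBY at 1.31 in amp1-13 and PSB27 at 1.29 with hyperphyllin have the largest differences.

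In photosystem I, 2 of 18 listed nuclear genes were measured. PSAE-1 (AT4G28750), a stromal subunit, rose 1.46-fold with hyperphyllin (log2 difference 0.54 ± 0.10, limma adjusted p = 0.00401) and 1.49-fold in amp1-13. PSAN, a lumenal subunit, had log2 differences of 0.47 ± 0.21 with hyperphyllin and 0.45 ± 0.21 in amp1-13 (limma adjusted p = 0.123 and 0.156). Its wild-type DMSO signals were 12.70, 11.74 and 12.37, lowest on replicate 2, the array that deviated most. The arrays of both other groups overlapped these.

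All 15 plastid-encoded photosystem II genes listed were measured. Whether the array signal follows the amount of these plastid transcripts was not tested. With hyperphyllin 4 were higher (psbC, psbD, psbZ and psbB, the last with a limma adjusted p of 0.044) and 2 were lower. In amp1-13 7 were higher (the same 4, psbH, psbN and psbT) and none was lower. Of these, psbB, psbN and psbT are named here after their values were seen. Neighbouring locus numbers are shared by psbC, psbD and psbZ, and by psbB, psbH, psbN and psbT. The counts therefore need not rest on independent genes, and shared transcripts were not examined. Over all probe sets 13.3% were called higher and 15.6% lower with hyperphyllin, and 10.1% higher and 12.5% lower in amp1-13. The 2 of 15 lower with hyperphyllin are near the share of all probe sets. The CP43 gene psbC, for an inner antenna protein of the core, had log2 differences of 1.28 with hyperphyllin and 1.98 in amp1-13. The reaction centre gene psbD had 1.13 with hyperphyllin and 1.82 in amp1-13, and psbZ, for a small core subunit, had 0.87 with hyperphyllin and 1.09 in amp1-13. The small-subunit gene psbH rose by 1.45 on the log2 scale in amp1-13 (limma adjusted p = 0.013), a call lost without wild-type DMSO replicate 3 or amp1-13 replicate 2 (limma adjusted p = 0.0526 and 0.0554). With hyperphyllin psbH had a log2 difference of 0.87 ± 0.32 (limma adjusted p = 0.0722), and 1.27 without wild-type DMSO replicate 2 (limma adjusted p = 0.00217). The median over the 15 genes was -0.06 with hyperphyllin and 0.25 in amp1-13. The 2 lower with hyperphyllin were psbM, named here after its values were seen, and the reaction centre gene psbA (log2 difference -0.61 ± 0.20, limma adjusted p = 0.0415). The psbA call was lost without any 1 of the hyperphyllin arrays, wild-type DMSO replicates 1 and 3 and amp1-13 replicate 3 (highest adjusted p 0.151) and with the replicate number as a block (limma adjusted p = 0.0513). Between hyperphyllin and amp1-13 all 15 had differences below 0, as had 48.7% of all probe sets, and 3 passed the threshold, where 3.35% of all probe sets were called lower. The 3 were psbN, named here after its values were seen, psbC and psbA, and the calls of psbC and psbA were lost with the replicate block and with any array left out other than wild-type DMSO replicate 2 or amp1-13 replicate 1. The median of the 15 was -0.39.

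By correlation over the 9 arrays among 13349 other genes, the gene most like LHCB4.1 was AT1G74470, annotated as geranylgeranyl reductase, with a Pearson r of 0.988, followed by PSAE-1 and AT1G21500 with 0.982 each. For LHCB4.2 these were AT3G01060 (r = 0.98), AT5G61820 (0.961) and AT1G74640 (0.959). For PSBY they were AT4G33660 (0.991) and the Calvin cycle genes SBPASE (0.988) and PRK (0.985). For PSB27 they were AT2G42220 (0.995), AT4G22470 (0.989) and CHLI2 (0.989), which encodes a subunit of the magnesium chelatase of chlorophyll synthesis. Among the 4 genes themselves r ranged from 0.573 for LHCB4.2 with PSB27 to 0.956 for LHCB4.1 with PSB27. The arrays share 3 group means, so these values describe the group pattern and carry no p.

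Leaf and root markers were thinly measured, with 1 of 10 leaf genes and 2 of 15 root genes. YAB3, a leaf polarity gene, had log2 signals of 6.90, 6.86 and 6.94 with hyperphyllin, 6.41, 6.64 and 6.64 in amp1-13, and 6.51, 6.47 and 5.94 in wild type with DMSO. It rose 1.51-fold with hyperphyllin (limma adjusted p = 0.0157) and had a log2 difference of 0.26 ± 0.15 in amp1-13 (limma adjusted p = 0.247). The amp1-13 value ranged from 0.07 to 0.36 over the arrays left out, lowest without wild-type DMSO replicate 3, and was 0.50 with array weights (limma adjusted p = 0.0136). PYK10, a beta-glucosidase gene of roots and hypocotyls, had log2 differences of 0.34 ± 0.13 with hyperphyllin (limma adjusted p = 0.0732, and 0.0196 without wild-type DMSO replicate 2) and 0.22 ± 0.13 in amp1-13. EXPA7, a root hair expansin gene, had log2 differences of 0.21 ± 0.22 with hyperphyllin and 0.44 ± 0.22 in amp1-13 (limma adjusted p = 0.517 and 0.18). Over the arrays left out these ranged from 0.09 to 0.38 with hyperphyllin and from 0.20 to 0.60 in amp1-13, where the lowest came without amp1-13 replicate 1. The part of tissue composition in the results on the 4 genes was not tested. In whole seedlings more green cells and more RNA per cell cannot be told apart.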

How the data were processed

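Log2 signals per probe set, made with RMA, were deposited by the authors as 1 table of 9 arrays, per the submitters' processing notes, which name RMA. The RMA software and the probe set definition it used are not given in these sources. That the values are log2 follows from their range, 2.77 to 14.3. The table holds 22810 probe sets, of which 64 controls were left out. Values were used with no further normalization and no filter. Precision rests on 3 arrays per group, which the labels call biological replicates.

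Group differences were fitted across the table with limma 3.58.1 under R 4.3.3 (1 mean per group, default empirical Bayes, two-sided, Benjamini-Hochberg adjustment over 22746 probe sets, threshold 0.05). The fit was also run on simulated arrays with independent normal noise and few changed probe sets, unlike these data. That run checks the code and not the calls. Probe sets were named with the platform annotation: 13513 name 1 gene, 503 several and 8730 none here. Of 130 other listed genes 29 were named alone by a probe set, which is what measured means here. None of the listed regulators or antenna import genes was. Whether probe sets with several names or none cover the remaining listed genes was not examined. Named genes were the 4 genes themselves, from each list up to 4 with the largest change past the threshold and with no overlap, or up to 2 with the smallest p, and the 3 most correlated with each gene. PSAN was added to account for its list. The genes psbB, psbM, psbN and psbT and the loci AT3G60370 and AT4G17740 were named after their values were seen. The genes and lists were chosen with earlier results of these data known. Alternatives were 2 filters on low signal, 2 rescalings, another prior, array weights, the replicate number as a block, only the 2 groups compared, and each array left out in turn. The assembly list without genes named only by locus was added after the data were seen.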

Additional observations from a re-analysis of the deposited data

How the results depend on the processing

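Both effects against wild-type DMSO kept their direction and their side of the threshold for LHCB4.1, PSBY and PSB27 under all 8 other settings and with each of the 9 arrays left out. LHCB4.2 did so as well, except for the 3 lost calls in amp1-13, where the log2 difference ranged from 0.46 to 0.64 over the arrays left out. The number of the 4 genes called higher in amp1-13 was then 3 or 4. For hyperphyllin against amp1-13, LHCB4.1 changed sign at -0.01 with arrays centred, -0.003 with array weights and within -0.03 to 0.07 over the arrays left out. Its main value was 0.03, so no direction can be read. With array weights LHCB4.2 and PSBY were called lower, both at -0.38, which made 2 of the 4 genes called. The ratio of the paralogs ranged from 0.35 to 0.55 for hyperphyllin against DMSO, from 0.32 to 0.47 for hyperphyllin against amp1-13 and from -0.05 to 0.15 for amp1-13 against wild type over the arrays left out.

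With array weights the counts of probe sets called higher and lower were 4988 and 5497 with hyperphyllin, 4412 and 4951 in amp1-13, and 1735 and 1688 for hyperphyllin against amp1-13, against 3023 and 3544, 2289 and 2835, and 677 and 762 without them. Over the arrays left out, these counts ranged from 1921 to 4422 and 1960 to 4447 with hyperphyllin, from 1295 to 3864 and 1250 to 4078 in amp1-13, and from 197 to 1094 and 309 to 1133 between hyperphyllin and amp1-13. The lowest counts came without wild-type DMSO replicate 3 in both effects and without amp1-13 replicate 2 in the last comparison, and the highest without wild-type DMSO replicate 2. The count of plastid-encoded genes called lower was 5 with array weights, 1 with the replicate block and 1 to 3 over the arrays left out for hyperphyllin against DMSO, and 8, 1 and 1 to 4 for hyperphyllin against amp1-13. The count called higher with hyperphyllin was 3 with either rescaling and 3 to 5 over the arrays left out. In amp1-13 the count called higher was 6 with the replicate block and 5 to 8 over the arrays left out. Over the arrays left out EXPA7 ranged from -0.38 to 0.01 and PSAE-1 from -0.10 to 0.01 for hyperphyllin against amp1-13. Without the genes named only by locus, the count of assembly genes called higher in amp1-13 was 1. The cause of these shifts was not tested.

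No pairing of the arrays by replicate number was seen. The correlation of the deviations of same-numbered arrays of different groups ranged from -0.197 to 0.226. For differently numbered arrays it ranged from -0.251 to 0.357. With the replicate block 2892 probe sets were higher and 3383 lower with hyperphyllin, and no call on the 4 genes changed.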
